A study of Mus musculus with 9 samples.

Results

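The aminoacyl-tRNA synthetase genes were examined in E10.5 mouse hearts in which *Ctcf*, encoding a zinc-finger protein that shapes chromatin contacts, had been deleted. Members were all genes of the deposited table whose symbol names a synthetase, that is, the letter of an amino acid followed by ars, with a closing 2 for the mitochondrial enzymes, and also *Eprs*, *Farsa* and *Farsb*. The rule found 37 genes among the 14011 in the table, 20 for cytosolic and 17 for mitochondrial enzymes, and all 37 genes of the annotation that match it were measured. RNA was sequenced from 3 control, 3 heterozygous and 3 homozygous libraries, each made from a pool of 6 hearts of mixed strain. Controls carried floxed *Ctcf* without Cre, which the sample labels give as Ctcf fl/fl and the methods as Ctcf fl/+. Heterozygotes joined Ctcf fl/+ with Nkx2.5-Cre/+. Homozygotes joined Ctcf fl/fl with the same Cre, so that all groups had a floxed allele and the controls alone lacked Cre. Nkx2.5-Cre acts in cardiac progenitors and the cells that descend from them, so the pools with Cre mixed recombined with unrecombined cells.

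Each synthetase couples an amino acid to its cognate tRNAs, and the charged tRNA then carries it to the ribosome. Cytosolic and mitochondrial translation mostly use separate enzymes from separate nuclear genes. *Gars* and *Kars* are exceptions, each encoding both forms, and mitochondria make glutaminyl-tRNA by an indirect route that starts with the glutamyl-tRNA synthetase *Ears2*. *Eprs* joins the glutamate and proline enzymes in one polypeptide, and *Farsa* and *Farsb* are the subunits of the cytosolic phenylalanine enzyme. A set of the cytosolic enzymes sits in the multisynthetase complex, held by scaffold proteins. Defects of several mitochondrial synthetases cause disease of tissues with high respiratory demand, and those of *AARS2*, the alanine enzyme, include an infantile cardiomyopathy.

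Libraries held from 4294537 to 11629365 reads, and replicate libraries of every group differed by more than sampling noise. *Ctcf* was at 120.5 to 122.1 normalized units in controls, 94.2 to 100.7 in heterozygotes and 79.6 to 84.7 in homozygotes, with control and heterozygote columns told apart by the study's group averages and not by sample titles. All 9 cardiomyocyte markers had reads in every library. Summed liver and endoderm markers reached 932.8 in control 1 against at most 74.9 in any other library, so results were also computed without it. Erythroid markers summed to between 57878 and 76512 in homozygotes and to at most 47252 elsewhere, and 9 of 9 were called higher in homozygotes than in either other group. Against controls 5 of them were called without control 2 or without homozygote 2, 4 without homozygote 3 and 2 without control 3. Epicardial markers summed to 572.2 or more in homozygotes and to at most 473.2 elsewhere, with 4 of 6 called higher in both comparisons. Markers also fell. Of the cardiomyocyte markers *Nkx2-5* was called lower (-0.95) and *Myl4* higher against controls, and *Nkx2-5*, *Myh6* and *Myh7* were called lower against heterozygotes. Of 9 endothelial and endocardial markers 3 were called lower and 1 higher against controls and 1 lower against heterozygotes, and of 6 cushion mesenchyme markers *Postn* was called lower in both. No macrophage or liver marker was called. The synthetase differences below were found in the same homozygous libraries, and the part of these cell-type signals in them was not tested. In such bulk samples fewer cells of a type and less RNA per cell cannot be told apart.

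Every synthetase gene was expressed in every library, with 37 reads in the lowest case and 3858 in the highest. Per kb of exonic length, cytosolic members lay above mitochondrial ones almost throughout: the median level over the 20 cytosolic genes was between 30.5 and 36.7 per library, and that over the 17 mitochondrial genes between 6.23 and 7.66. *Gars*, the glycine enzyme of both compartments, stood highest at 101 ± 8.79 per kb in controls (SD, n = 3). *Lars2*, the mitochondrial leucine enzyme, came next at 84.3 ± 25.6. That spread also covers *Gars*, *Kars* (lysine, both compartments) at 72.5 ± 3.27 and *Nars* (asparagine) at 70.7 ± 4.86. In heterozygotes and homozygotes *Lars2* stood above *Gars*, with means of 108 and 105 per kb beside 101 and 103. *Wars2* and *Pars2*, the mitochondrial tryptophan and proline enzymes, were lowest at 2.70 ± 0.0914 and 2.96 ± 0.344 per kb, and they did not differ beyond their spread.

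**Figure D1:**
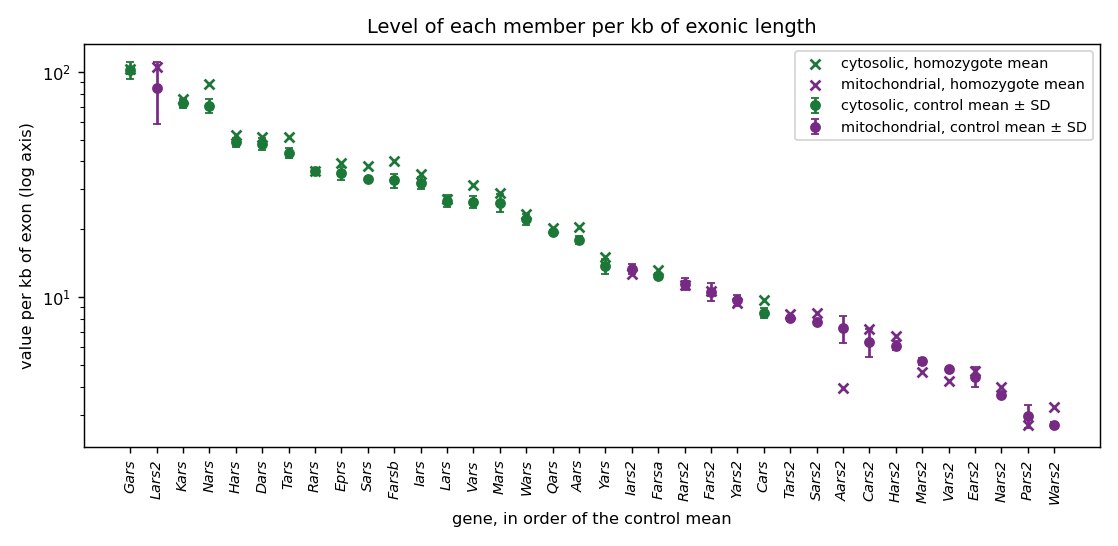
Level of 36 of the 37 genes per kb of exon (log axis), in order of the control mean. Circles are control means with SD over 3 libraries and crosses are homozygote means. *Lars2* is the sole mitochondrial gene among the highest 19, and *Aars2* shows a cross well below its circle.

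*Gars* had 231, 266 and 229 normalized units in controls, 223, 255 and 247 in heterozygotes and 236, 250 and 251 in homozygotes, with full overlap of the groups. *Kars* had 162, 157 and 171 in controls, 164, 169 and 167 in heterozygotes and 160, 175 and 174 in homozygotes, again overlapping. The homozygote minus control differences of these shared genes had narrow 95% intervals, from -0.13 to 0.18 for *Gars* and from -0.07 to 0.18 for *Kars* on the log2 scale.

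*Lars2* varied more than its neighbours in level, with 263, 277 and 442 units in controls, 354, 456 and 446 in heterozygotes and 458, 414 and 347 in homozygotes. Control 3 thus lay among the Cre-carrying libraries and the other 2 controls below all of them. Its homozygote minus control log2 difference of 0.34 (SE 0.16) was not called (limma, adjusted p = 0.181), and without control 3 it was 0.58 and called, at an adjusted p of 0.0116. A stretch of 72 bases of its transcript is 98.6% identical to *Gm15564*, a transcript on chromosome 16 that is not in the table, and reads from there cannot be told apart. At the low end, *Wars2* had 15.54, 16.62 and 16.01 units in controls, 17.3, 19.1 and 19.7 in heterozygotes and 22.1, 18.7 and 17.2 in homozygotes. Its controls lay below every Cre-carrying library, yet the difference from homozygotes (0.26, SE 0.11) was not called, at an adjusted p of 0.145 in limma. *Pars2* had 8.09, 10.2 and 9.14 units in controls, 9.86, 12.2 and 9.34 in heterozygotes and 8.52, 8.04 and 8.42 in homozygotes, which were below all heterozygotes but not below all controls.

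In homozygotes against controls, 1 mitochondrial synthetase gene fell and 4 cytosolic ones rose. *Aars2* fell by 0.87 on the log2 scale, and *Nars*, *Farsb*, *Vars* and *Tars* rose by 0.32, 0.28, 0.24 and 0.23. Calls are adjusted p-values under 0.05 from limma on log2 of the value plus 0.5, adjusted over all 14011 genes. By that rule 15.2% of all genes were called, against 13.5% of the 37 members, so the family as a whole was not called more often than all genes. With only genes of a mean value of at least 5, 2147 of 11128 genes were called, and the same 5 members. By direction, 7.19% of all genes were called higher and 8.03% lower, beside 4 higher and 0 lower of the 20 cytosolic members and 0 higher and 1 lower of the 17 mitochondrial ones. Median standard errors were 0.065 for cytosolic and 0.112 for mitochondrial members, so a difference of a given size was less readily called in the latter. The median log2 difference was 0.13 over the cytosolic members and 0.0087 over the mitochondrial members, beside -0.0011 over all genes. It was above 0 for 19 of 20 cytosolic members, with *Rars* (arginine) at -0.0021, and for 9 of 17 mitochondrial members, beside 49.9% of all genes. In 9 cytosolic members every homozygous library was above every control, and in none was it below, where 16.6% and 16.5% of all genes were separated that way. Among mitochondrial members 2 were separated upward and 3 downward. The 16 cytosolic members not called had 95% intervals within -0.15 and 0.35, and the 16 mitochondrial ones within -0.44 and 0.70.

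**Figure D2:**
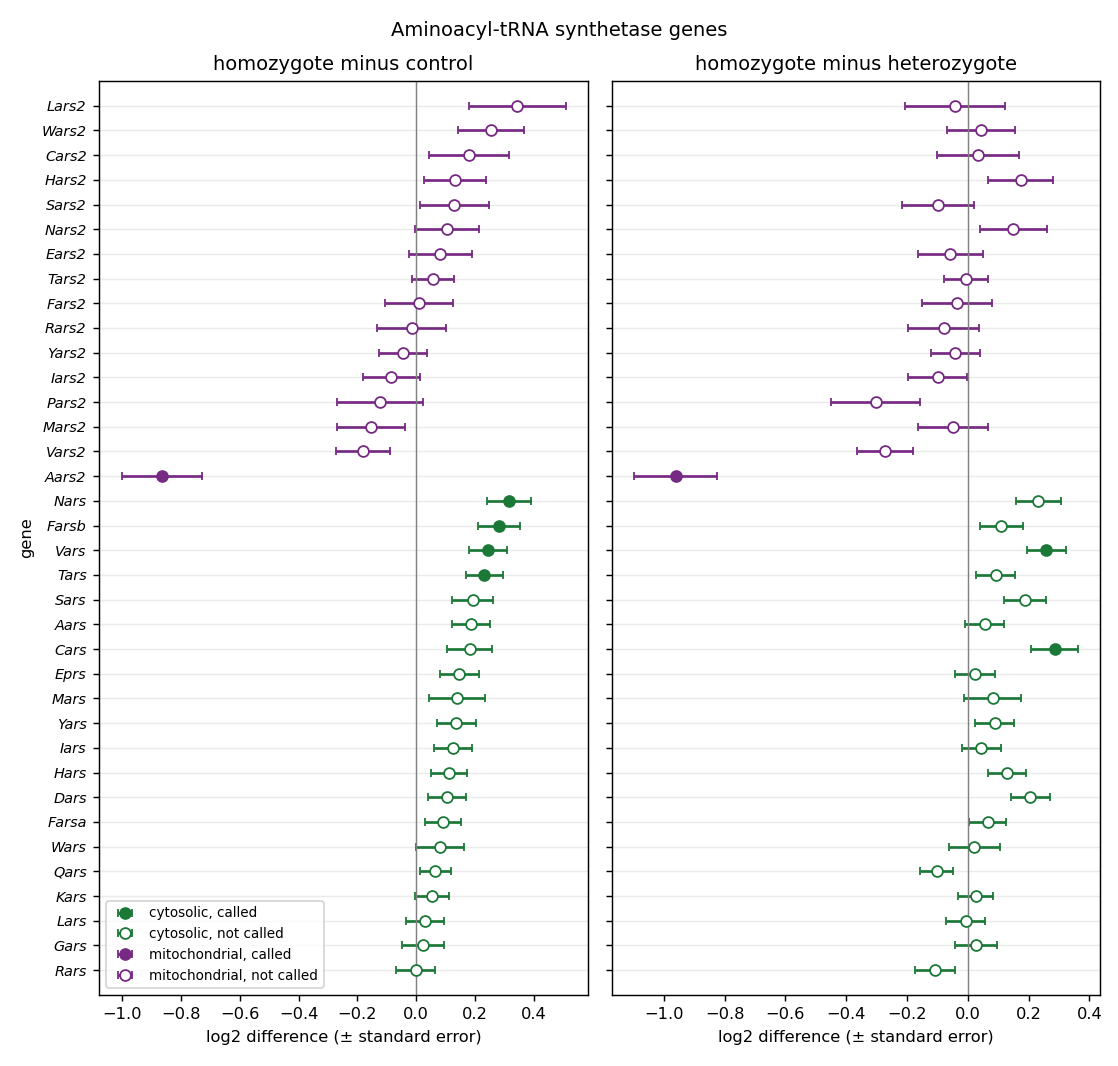
Log2 difference of 36 of the 37 members, homozygote minus control (left) and homozygote minus heterozygote (right), with standard errors from the fit. Filled symbols were called. Cytosolic genes (lower block) lie mostly to the right of 0, with a median of 0.13 on the left panel, and *Aars2* stands alone at -0.87 and -0.96.

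The 4 rises were small, and their calls depended on single libraries. Over the 19 alternatives the difference stayed between 0.27 and 0.38 for *Nars*, 0.24 and 0.34 for *Farsb*, 0.20 and 0.30 for *Vars* and 0.19 and 0.26 for *Tars*. Without homozygote 3, the deepest library, none of the 20 cytosolic members was called, and without control 3 none was called either. Without control 2 *Nars* alone was called, and without homozygote 2 *Nars* and *Tars* were. With limma's mean-variance trend left out, none of the 4 was called. Calls over all genes fell as well, from 2133 to 1267 without homozygote 3, to 1049 without control 3 and to 1196 without the mean-variance trend. With the trend of the differences with gene length removed, *Farsb* (limma adjusted p = 0.0503) and *Tars* (0.0733) were no longer called, while *Aars* and *Eprs* were. Without control 1, the library with the liver and endoderm signal, 4 members were called higher and 1 lower. *Aars2* was called in all 19 alternatives, at adjusted p-values from 0.00105 to 0.0132. The cytosolic median stayed between 0.089 and 0.15 over the 19 alternatives.

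*Aars2* (ENSMUSG00000023938, chr17:45643790-45657791 on the plus strand of NCBIM37) encodes the mitochondrial alanyl-tRNA synthetase. Its values were 21.4, 23.5 and 28.0 in controls, 28.3, 26.3 and 23.2 in heterozygotes and 14.9, 13.8 and 10.8 in homozygotes, from 65 to 288 reads a library. All 3 homozygotes lay below all 6 other libraries, and controls and heterozygotes overlapped. The homozygote mean of 13.1 ± 2.13 was 54.1% of the control mean of 24.3 ± 3.38 and 50.7% of the heterozygote mean of 25.9 ± 2.58 (SD, n = 3 each). The log2 difference was -0.87 against controls (SE 0.14, 95% interval -1.16 to -0.57, limma adjusted p = 0.00126) and -0.96 against heterozygotes (SE 0.14, adjusted p = 0.000788). An exact two-sided permutation test of 3 against 3 libraries gave p = 0.1 in each, the smallest it can give. Its exons overlap no other annotated gene.

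**Figure D3:**
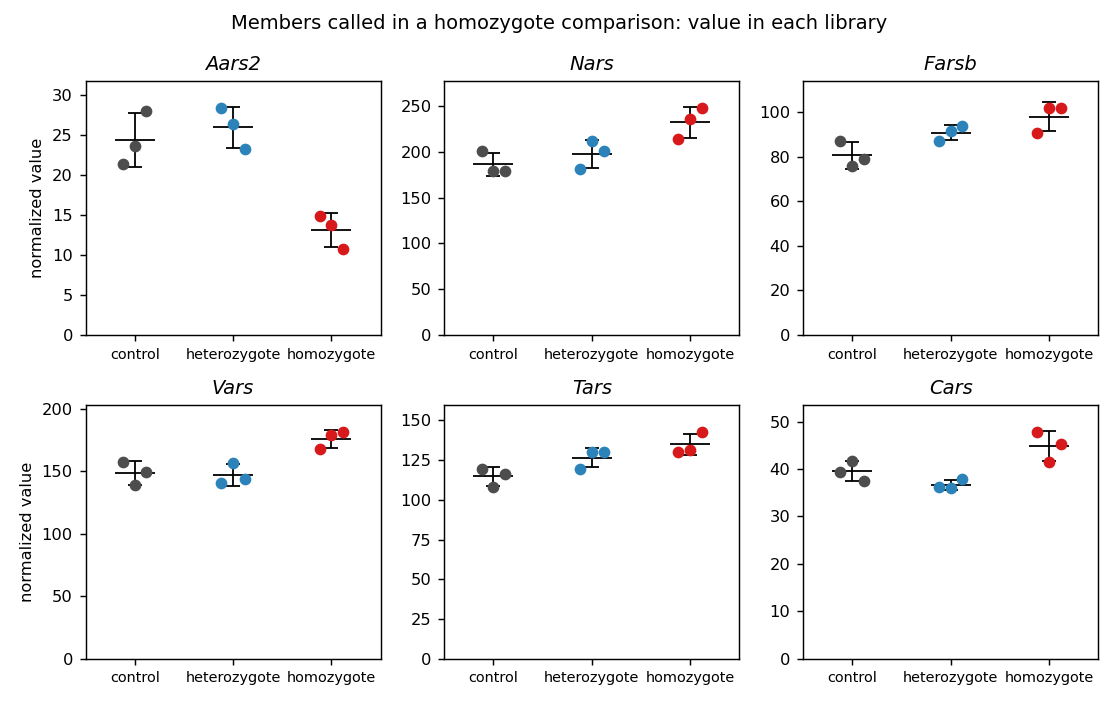
Normalized value in each library for the 6 members called in a homozygote comparison. Points are libraries, and bars give the mean and SD of 3. *Aars2* drops to between 10.8 and 14.9 in homozygotes, while the shifts of *Nars*, *Farsb*, *Vars*, *Tars* and *Cars* are small beside their level.

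*Nars* (ENSMUSG00000024587, chr18:64659319-64676211), which charges asparagine tRNA, had 201, 178 and 179 units in controls, 181, 211 and 200 in heterozygotes and 213, 235 and 247 in homozygotes. Every homozygote exceeded every other library. The difference from controls was 0.32 (SE 0.07, limma adjusted p = 0.0126), and that from heterozygotes was 0.23 and not called (adjusted p = 0.0565).

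*Farsb* (ENSMUSG00000026245, chr1:78414533-78485434), the beta subunit of the phenylalanine enzyme, had 87.0, 75.7 and 78.7 units in controls, 86.9, 91.4 and 93.5 in heterozygotes and 90.5, 101.6 and 101.6 in homozygotes. Homozygotes were above all controls and overlapped with heterozygotes, whose mean lay between the other 2. The rise over controls was 0.28 (SE 0.07, limma adjusted p = 0.0171), and its partner subunit *Farsa* differed by 0.09 (SE 0.06), which was not called (adjusted p = 0.358). Exons of *Farsb* share 265 bases with *Sgpp2*, which is not in the table.

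*Vars* (ENSMUSG00000007029, chr17:35137932-35153267), the valine enzyme, which binds the elongation factor 1 complex, had 158, 139 and 149 units in controls, 141, 157 and 144 in heterozygotes and 168, 179 and 182 in homozygotes. All homozygotes were above all 6 other libraries. It was called against controls (0.24, SE 0.06, limma adjusted p = 0.0224) and against heterozygotes (0.26, SE 0.06, adjusted p = 0.0191). Its exons share 304 bases with *D17H6S56E-5*, whose own differences of 0.17 from controls and 0.26 from heterozygotes were not called (adjusted p = 0.24 and 0.0704), and reads from the shared bases cannot be told apart.

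*Tars* (ENSMUSG00000022241, chr15:11313418-11329413), the threonine enzyme, had 120, 108 and 116 units in controls, 119, 130 and 130 in heterozygotes and 130, 131 and 143 in homozygotes. Homozygotes were above all controls, and they overlapped with heterozygotes. The rise over controls was 0.23 (SE 0.06, limma adjusted p = 0.0261), and the difference from heterozygotes was 0.09 and not called. *Sars* (serine) and *Aars* (alanine) fell just outside the threshold at 0.19 each, with adjusted p-values of 0.0775 and 0.0651, and in both every homozygote was above every control.

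Against heterozygotes, which carry the same Cre, homozygotes had *Cars* and *Vars* higher and *Aars2* lower. That is 8.11% of the 37 members, beside 13.6% of all genes (6.87% higher and 6.70% lower). *Cars* (ENSMUSG00000010755, chr7:150743135-150785995), the cysteine enzyme, had 39.3, 41.7 and 37.5 units in controls, 36.1, 36.0 and 37.9 in heterozygotes and 47.8, 41.6 and 45.3 in homozygotes. Homozygotes were above all heterozygotes, and the lowest of them overlapped with controls. The difference was 0.29 against heterozygotes (SE 0.08, limma adjusted p = 0.0274) and 0.18 against controls (adjusted p = 0.136). Exons of *Cars* share 211 bases with *Gm15580*, which is not in the table, and 64 bases of 1 of its annotated transcripts are 95.3% identical to the opposite strand of *Ftl1*, at a mean of 1309 units. Without homozygote 3, or without heterozygote 1, no member was called higher, and *Aars2* remained called. Without homozygote 1 *Vars*, *Dars*, *Nars* and *Sars* were called higher, and *Cars* was not. *Cars* was also not called without heterozygote 2 or with the replicate number added to the fit, nor *Vars* without heterozygote 3 or homozygote 2. With limma's mean-variance trend left out, neither was called. The median was 0.07 over the cytosolic members (17 of 20 above 0) and -0.05 over the mitochondrial ones (4 of 17 above 0), beside -0.0045 over all genes, of which 49.2% were above 0. Homozygotes lay above all heterozygotes in 7 cytosolic and 0 mitochondrial members and below them in 1 and 3, where 15.3% and 15.5% of all genes were so separated. *Vars2*, the mitochondrial valine enzyme, differed by -0.27 (SE 0.09, limma adjusted p = 0.0687), with all homozygotes below all 6 other libraries. It was called lower in edgeR's quasi-likelihood test on whole reads, at an adjusted p of 0.0464.

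No member was called between heterozygotes and controls, by limma or by edgeR, where 0.143% of all genes were called by limma. An unadjusted p under 0.05 was found for 4 of the 37 members and for 7.37% of all genes. The medians were 0.05 for the cytosolic and 0.06 for the mitochondrial members, and 28 of 37 differences were above 0, beside 50% of all genes. With a library left out, the medians ran from 0.019 to 0.086 for the cytosolic and from 0.049 to 0.098 for the mitochondrial members. In 5 members every heterozygote exceeded every control (*Aars*, *Qars*, *Rars*, *Sars2* and *Wars2*), and in none was it the reverse, where 7.41% of all genes were separated upward and 6.93% downward. Both homozygote comparisons use the same homozygous libraries, so that their likeness is no repeat of a finding.

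Summed over the 20 cytosolic members, the libraries held between 2471 and 2611 units in controls, between 2540 and 2736 in heterozygotes and between 2702 and 2879 in homozygotes. Homozygotes were thus above all controls, and the lowest of them overlapped with heterozygotes. The sums of the 17 mitochondrial members overlapped across all groups, from 723.8 to 949.0. *Lars2* alone made up 263 to 458 units of these sums. Without it, a choice made after seeing the data, they ran from 461.2 to 465.2 in controls, from 459.8 to 492.7 in heterozygotes and from 438.5 to 468.3 in homozygotes, and overlapped as well.

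Set beside each other by amino acid, the cytosolic enzyme had the higher log2 difference in 15 of 18 pairs against controls and in 15 of 18 against heterozygotes, and in 9 of 18 in heterozygotes against controls. *Eprs* and *Fars2* each enter 2 pairs. The median of cytosolic minus mitochondrial difference was 0.18, 0.13 and 0.0036 in these comparisons. The alanine pair was farthest apart, with *Aars* at 0.19 and *Aars2* at -0.87 against controls. The valine pair followed, with *Vars* at 0.24 and *Vars2* at -0.18. Methionine (*Mars* 0.14, *Mars2* -0.15), isoleucine (*Iars* 0.13, *Iars2* -0.08) and tyrosine (*Yars* 0.14, *Yars2* -0.04) had opposite signs with no call in either gene. *Iars2* changed sign over the 19 alternatives, from -0.19 to 0.05. Its exons share 2018 bases with *Rab3gap2*, those of *Mars* 68 with *Ddit3* and those of *Yars* 118 with *snoU13* and *C77080*. Asparagine (*Nars* 0.32, *Nars2* 0.10), threonine (*Tars* 0.23, *Tars2* 0.06), serine (*Sars* 0.19, *Sars2* 0.13) and cysteine (*Cars* 0.18, *Cars2* 0.18) were both above 0. Arginine (*Rars* -0.0021, *Rars2* -0.02) lay close together. *Eprs* was at 0.15, with *Ears2* at 0.08 and *Pars2* at -0.12, and *Fars2* was at 0.0087 beside its cytosolic counterparts. The order was turned for leucine (*Lars* 0.03, *Lars2* 0.34), tryptophan (*Wars* 0.08, *Wars2* 0.26) and histidine (*Hars* 0.11, *Hars2* 0.13), the last pair sharing 195 exonic bases. The differences between partners were not tested.

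**Figure D4:**
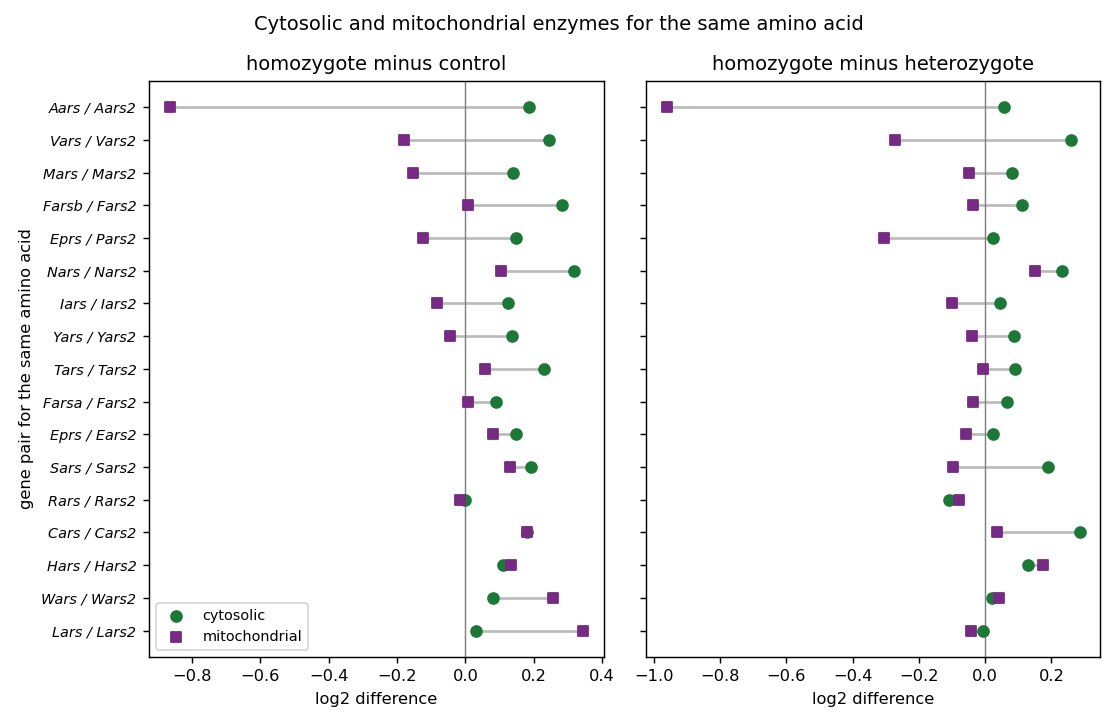
Log2 difference of the cytosolic (circle) and mitochondrial (square) enzyme for the same amino acid in 17 of the 18 pairs, homozygote minus control (left) and minus heterozygote (right). The circle lies to the right in most pairs of either panel, and the alanine and valine pairs are widest on the left.

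None of the 8 cytosolic members of the multisynthetase complex (*Dars*, *Eprs*, *Iars*, *Kars*, *Lars*, *Mars*, *Qars* and *Rars*) was called in any comparison, where the share of all genes called was 15.2% against controls and 13.6% against heterozygotes, so that a count of 0 among 8 is near the background. Their median against controls was 0.09, beside 0.18 for the 12 cytosolic members outside it, and the difference between these groups was not tested. None of the 3 scaffold genes (*Aimp1*, *Aimp2* and *Eef1e1*) was called, at a median of -0.03. By the structural classes of their catalytic domain, 18 members are of class I and 18 of class II, with *Eprs* holding both. Against controls class II held 3 calls higher and the fall of *Aars2*, at a median of 0.10, and class I held *Vars*, at a median of 0.08. Against heterozygotes class I held both calls higher, *Cars* and *Vars*, at a median of -0.02, and class II held the fall of *Aars2* alone, at a median of 0.06. The difference between the classes was not tested, and of all genes 7.19% were called higher and 8.03% lower against controls, and 6.87% and 6.7% against heterozygotes.

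Cells that lack charged tRNA switch on a transcriptional response led by ATF4, whose targets include amino acid transporters, serine and asparagine synthesis enzymes and several cytosolic synthetases. Of 32 genes listed for this response 28 were measured, none of them a synthetase gene. In homozygotes 7 of the 28 were called higher than in controls, beside 7.19% of all genes, and 9 higher than in heterozygotes, beside 6.87%. None was called lower in either, and none was called in heterozygotes against controls. In the same libraries 9 of 9 erythroid and 4 of 6 epicardial markers were called higher in both comparisons, and their part in this was not tested. The list's median was 0.22 and 0.29, beside all-gene medians of -0.0011 and -0.0045.

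*Atf4* itself had 191, 179 and 160 units in controls, 164, 188 and 183 in heterozygotes and 236, 244 and 278 in homozygotes, which were above all other libraries. It differed by 0.52 from controls (SE 0.08, limma adjusted p = 0.00118) and by 0.50 from heterozygotes (adjusted p = 0.00161). *Trib3*, a pseudokinase induced by ATF4, rose by 0.89 and 1.02 (SE 0.16), *Phgdh*, of serine synthesis, by 0.56 and 0.58 (SE 0.08), and *Slc6a9*, a glycine transporter, by 0.58 and 0.65 (SE 0.13), in the same order of comparisons. *Asns*, the asparagine synthetase of metabolism, was at 0.41 against controls (adjusted p = 0.0778) and was called against heterozygotes, at 0.63 (limma adjusted p = 0.0136). *Aldh1l2*, a mitochondrial folate enzyme, had -0.50 and -0.51 and was not called. Without homozygote 3 the calls in the list numbered 4 against controls and 5 against heterozygotes, and without the mean-variance trend 3 and 4.

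**Figure D5:**
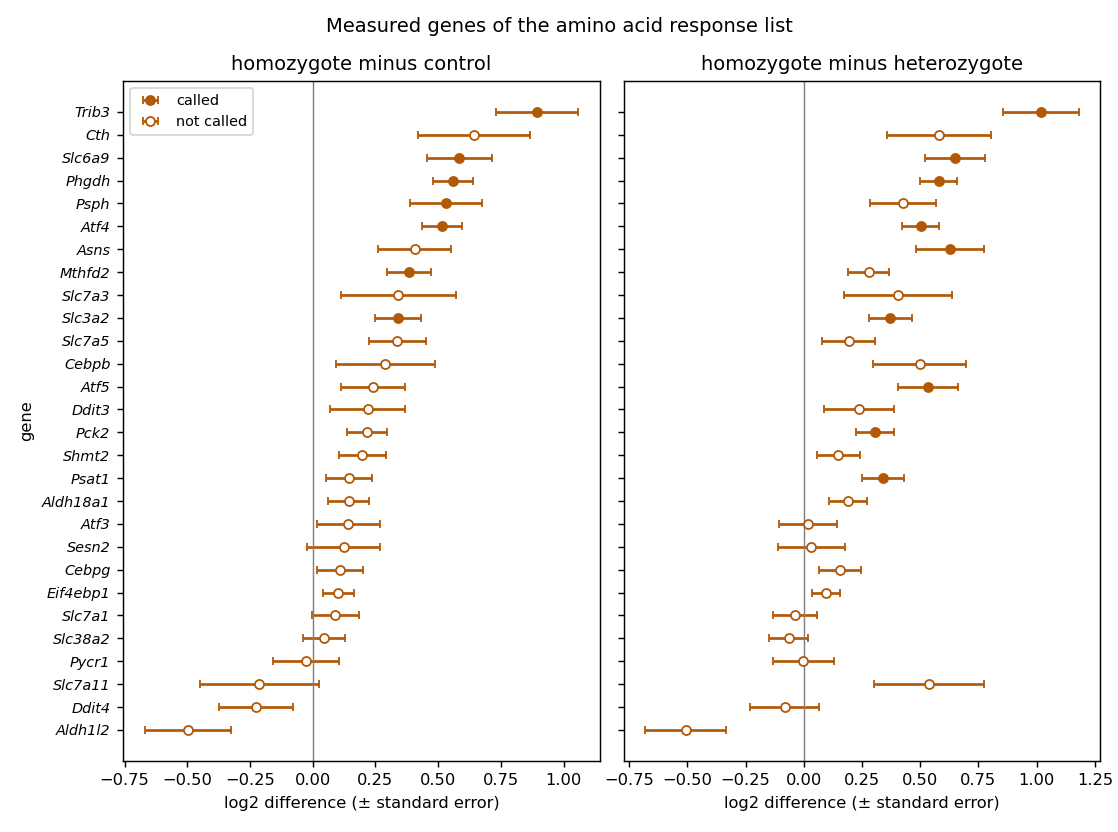
Log2 difference with standard error of the 28 measured genes of the amino acid response list, homozygote minus control (left) and minus heterozygote (right). Filled symbols were called, 7 on the left and 9 on the right, all to the right of 0.

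Promoters of called members are shown so that those that rose (*Tars* and *Farsb*) and the one that fell (*Aars2*) may be compared by sequence. RefSeq windows of 300 bases, 250 before to 50 after the start site, were at hand for 26 of 37 members on GRCm38.p6. Each was searched on both strands for the C/EBP-ATF element TGATGNAA, the E-box CACGTG, the nuclear respiratory factor 1 core CGCANGCG and a part of the CTCF core, GGNGGCAG. Printed on the strand of the gene with matches in capitals, none of which overlap, they are *Tars* at chr15:11399609-11399908 on the minus strand, *Farsb* at chr1:78488848-78489147 on the minus strand and *Aars2* at chr17:45506582-45506881 on the plus strand. The windows of *Cars*, *Nars* and *Vars* were not used here.
Tars: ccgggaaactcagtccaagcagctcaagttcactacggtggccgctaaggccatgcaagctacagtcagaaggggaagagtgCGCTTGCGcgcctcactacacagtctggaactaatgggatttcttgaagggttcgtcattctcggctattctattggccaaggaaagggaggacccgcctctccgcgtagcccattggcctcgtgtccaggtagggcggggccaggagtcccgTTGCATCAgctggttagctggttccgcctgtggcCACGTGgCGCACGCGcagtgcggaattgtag
Farsb: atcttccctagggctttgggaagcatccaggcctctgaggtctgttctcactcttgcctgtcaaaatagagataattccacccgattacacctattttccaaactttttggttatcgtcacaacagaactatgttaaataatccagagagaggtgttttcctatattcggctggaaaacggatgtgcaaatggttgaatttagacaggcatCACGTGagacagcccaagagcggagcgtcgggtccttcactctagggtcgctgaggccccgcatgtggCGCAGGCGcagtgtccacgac
Aars2: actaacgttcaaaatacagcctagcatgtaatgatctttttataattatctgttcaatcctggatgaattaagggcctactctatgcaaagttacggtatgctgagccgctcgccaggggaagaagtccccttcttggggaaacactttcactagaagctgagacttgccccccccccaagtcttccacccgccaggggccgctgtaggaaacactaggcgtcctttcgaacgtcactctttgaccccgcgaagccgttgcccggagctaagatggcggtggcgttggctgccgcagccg

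The *Tars* window held the C/EBP-ATF element on the opposite strand, an E-box followed closely by the respiratory factor core, and a further such core upstream. *Farsb* held an E-box and a respiratory factor core, and *Aars2* held none of the 4 motifs. The C/EBP-ATF element was found in 5 of 12 cytosolic windows (*Aars*, *Gars*, *Iars*, *Tars* and *Yars*), in 0 of 14 mitochondrial ones and in 3.91% of 32544 windows of all genes. These 5 genes differed from controls by 0.02 to 0.23 with *Tars* called and the other 4 not. The E-box was in 5 of the 26 members' windows (7.17% of all windows), the respiratory factor core in 9 (8.24%) and the CTCF core part in 4 (12.6%), *Aars*, *Cars2*, *Fars2* and *Iars2*, none of them called.

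The steps that follow charging changed in a few genes. Of 7 cytosolic elongation genes, which include *Vars*, 4 were called higher and 1 lower against controls, at a median of 0.23, and 2 higher and 1 lower against heterozygotes. Of all genes 7.19% and 8.03% were called higher and lower against controls, and 6.87% and 6.7% against heterozygotes. *Eef1b2* and *Eef1d*, subunits of the exchange factor of elongation factor 1, rose over controls by 0.30 (SE 0.06, limma adjusted p = 0.00524) and 0.25 (SE 0.06, adjusted p = 0.0132). *Eef1a2*, the muscle and neuron form of elongation factor 1 alpha, fell from 21.9, 24.6 and 26.5 units in controls and 26.8, 24.7 and 18.8 in heterozygotes to 10.1, 11.6 and 9.41 in homozygotes. Its log2 difference from controls was -1.19 (SE 0.14, limma adjusted p = 0.000116).

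Among 10 measured mitochondrial translation factors 1 was called higher and 1 lower against controls, at a median of -0.04. Of all genes 7.19% were called higher and 8.03% lower, so these counts are near the background. *Gfm1*, the mitochondrial elongation factor G, had 109, 114 and 114 units in controls, 118, 124 and 128 in heterozygotes and 78.5, 89.6 and 76.1 in homozygotes, with homozygotes below all other libraries. It differed by -0.46 from controls (SE 0.07, limma adjusted p = 0.000759) and by -0.60 from heterozygotes (adjusted p = 0.000145). *Mrrf*, the ribosome recycling factor, rose over controls by 0.35 (SE 0.10, limma adjusted p = 0.0304). None of 11 mitochondrial tRNA maturation genes and none of the 4 genes of the indirect glutaminyl-tRNA route and formylation was called in any comparison, at medians against controls of 0.02 and 0.08.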

How the data were processed

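RNA from 9 pools of hearts was sequenced on a GAIIx and assigned by the authors to the NCBIM37 transcriptome (Ensembl 65). The submitters' processing notes name cutadapt, RSEM, Bowtie2 and limma. The deposited signal is a normalized value per gene. In each library it equals a whole number of reads plus 0.5, times a constant, for 100% of values within 0.01 reads, and whole reads were recovered from it. Columns named Het were taken as controls and those named DH as heterozygotes, because their averages match the group averages in the study's own table. By name alone Het would go with the heterozygotes, the sample titles do not settle it, and with the names read that way the 2 groups would change places. The growth protocol names double heterozygous embryos (DH). *Ctcf* was at 120.5 to 122.1 units in the Het columns and 94.2 to 100.7 in the DH columns (log2 -0.32, limma adjusted p = 0.0467). Control and heterozygote libraries are called by the number that ends their column. Values were fitted as log2(value + 0.5) with limma 3.58.1 (R 4.3.3, mean-variance trend, 9 libraries in 1 fit, Benjamini-Hochberg over 14011 genes). A value of at least 1 in 3 libraries holds for every gene. edgeR 4.0.16 on the recovered reads was an alternative. The fits were tested on simulated data. Transcripts were compared with BLAST+ 2.17.0 (95% identity, 50 bases). Whether counting used strand is not given in the sources used here. Separate pools are the replicates. Named with full values were members called in any comparison, the 2 highest and 2 lowest per kb, *Gars* and *Kars*, and up to 4 called genes per other list by adjusted p, with *Asns* and *Aldh1l2*, further cases near the threshold and the neighbours of *Aars2* chosen after their values were seen. The own values of 1 member are not reported here. Members and lists were chosen with earlier results of these data known.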

Additional observations from a re-analysis of the deposited data

How the results depend on the processing

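The counts of members called, the compartment medians and each member's difference were recomputed under 19 alternatives. Apart from the amino acid response and erythroid counts, the other lists, pairs, cytosolic sums and neighbours were not, and the mitochondrial sums only without *Lars2*. The fall of *Aars2* was called in all 19, in both homozygote comparisons. Without limma's mean-variance trend, 1 member was called against controls in place of 5 and 1 against heterozygotes in place of 3. With only genes of a mean value of at least 5, the count against heterozygotes was 5, *Dars* and *Nars* being added. With a library left out, the count ran from 1 to 6 against controls and from 1 to 5 against heterozygotes, and it was 0 throughout between heterozygotes and controls. Removing the trend with gene length left 5 members called against controls, with *Aars* and *Eprs* in place of *Farsb* and *Tars*. The heterozygote minus control difference of *Vars*, -0.01 and not called, ran from -0.061 to 0.031 with a library left out, above 0 without control 1 (0.031), heterozygote 1 (0.019) or heterozygote 3 (0.0019). Cytosolic medians ran from 0.09 to 0.15 against controls and from 0.04 to 0.10 against heterozygotes over all alternatives, and mitochondrial ones from -0.04 to 0.05 and from -0.08 to -0.03. Library numbers did not pair the samples, as libraries of the same number deviated from their group means with correlations from -0.11 to 0.10, and the replicate block gave 5 calls against controls and 2 against heterozygotes, *Cars* being lost. For the amino acid response list, alternatives chosen after seeing the data gave from 3 to 10 and from 4 to 11 calls, with *Aldh1l2* called lower without control 1 (against controls) or without homozygote 1 (in both comparisons), and for the 9 erythroid markers from 1 to 9 and from 5 to 9. Depth limits *Pars2* most, with 37 to 100 reads a library.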

Other observations

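The surroundings of *Aars2* on chromosome 17 were looked at after its value was seen. Of the 3 measured genes on each side by start, 1 was called against controls, beside 15.2% of all genes, and 5 were not. Of the 6 measured neighbours of each cytosolic member called, chosen likewise, 1 was called lower against controls for *Farsb*, 1 higher each for *Nars* and *Vars*, and 1 higher and 1 lower for *Tars*. For *Cars*, which was called against heterozygotes only, none was called against controls, and *Phlda2*, at means of 0.837 units in heterozygotes and 3.97 in homozygotes, was called higher against heterozygotes (1.77, SE 0.49, limma adjusted p = 0.031). *Slc35b2*, a Golgi transporter of the sulfate donor, starts 43.1 kb beyond *Aars2* and had a mean of 30.7 units in homozygotes, beside 46.3 in controls and 47.9 in heterozygotes. The log2 difference was -0.59 against controls (SE 0.09, limma adjusted p = 0.00121) and -0.63 against heterozygotes (adjusted p = 0.00091). *Nfkbie*, between the 2 genes, was at a mean of 2.21 units in controls with a difference of 0.03, and *Hsp90ab1*, 46.9 kb away, at 2610 units with a difference of -0.05, neither called.

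Of 7 genes in a list of synthetase-like, editing and related genes (*Tarsl2*, *Aarsd1*, *Dtd1*, *6530401N04Rik*, *Prorsd1*, *Pstk* and *Sepsecs*), none was called in any comparison. Their median was 0.10 against controls and 0.13 against heterozygotes.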
